A study of Mus musculus with 23 samples.

Results

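Gfap, Vim, Nes, Serpina3n, C4b, Cd44, Lcn2, Osmr and Steap4, genes that astrocytes are known to raise when they become reactive, were followed through mouse brain cells sorted by how much of an injected antibody they carried. They were taken by symbol and are 9 of the 32285 genes in the deposited matrix. Astrocytes are glial cells whose processes contact neurons and whose endfeet wrap brain vessels. After injury or inflammation they enlarge an intermediate filament network built of GFAP, vimentin and nestin, and they secrete proteins such as the protease inhibitor SERPINA3N, complement C4 and the iron-binding lipocalin 2. Cytokines of the interleukin 6 family, oncostatin M among them, act on astrocytes through the shared receptor chain gp130 and the transcription factor STAT3 and raise several of these genes. GFAP is also high in unchallenged astrocytes of white matter and of the brain surface, and vimentin and nestin are abundant in vessel cells.

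Each mouse received 45 mg/kg of an Alexa647-conjugated antibody by vein, and brain cells were taken 24 h later and sorted into negative, low, medium and high bins of Alexa647 signal. ATV-TfR, labelled DNP02_hIgG1_LALAPG_ATV35.23.2, binds the transferrin receptor and was given to TfR mu/hu KI mice. ATV-CD98hc, labelled DNP02 LALAPG LLB2-10-8 monovalent, binds the heavy chain of the amino acid carrier CD98 and was given to CD98hc mu/hu KI mice. The control, labelled DNP02_hIgG1_LALAPG, was given to C57BL/6 mice, and both knock-ins are on the C57BL/6J background. Treatment and genotype therefore coincide, and no untreated mouse was among these samples. The series' design text gives an age of 12 weeks for the mice and the sample labels give 3.3 months. Each treatment had 2 pools, each of 1 male and 1 female mouse, and every pool was split over the bins, so that 1 pool and 1 bin make 1 library. Brains were perfused with PBS, taken without olfactory bulbs, cerebellum, pons and medulla, and dissociated with actinomycin D and anisomycin, which block transcription and translation. The bin edges were set on the ATV-TfR cells and used for all treatments.

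The 9 genes lie on 7 chromosomes of GRCm38. Gfap (ENSMUSG00000020932) spans chr11:102887336-102900912 on the minus strand, C4b (ENSMUSG00000073418) spans chr17:34728380-34743882 on the minus strand, and Serpina3n (ENSMUSG00000021091) spans chr12:104406729-104414329 on the plus strand. Vim (ENSMUSG00000026728) spans chr2:13573927-13582826 on the plus strand and Nes (ENSMUSG00000004891) spans chr3:87971078-87980451 on the plus strand. Osmr (ENSMUSG00000022146) spans chr15:6813577-6874969 on the minus strand, Cd44 (ENSMUSG00000005087) spans chr2:102811141-102901665 on the minus strand, Lcn2 (ENSMUSG00000026822) spans chr2:32384633-32388252 on the minus strand and Steap4 (ENSMUSG00000012428) spans chr5:7960457-7982213 on the plus strand. RefSeq promoter windows of GRCm38.p6 were matched for 8 of the 9 genes. The 3 windows below are shown because Gfap, Serpina3n and Nes were higher in the high than in the negative bin of both ATVs (C4b was the fourth such gene). They run up to the RefSeq start, for Gfap chr11:102897201-102897450 on the minus strand and for Serpina3n chr12:104406458-104406707 on the plus strand. For Nes the first 200 bases of the window are shown, chr3:87970843-87971042 on the plus strand, with GGGCGG or its reverse complement CCGCCC in capitals.
Gfap: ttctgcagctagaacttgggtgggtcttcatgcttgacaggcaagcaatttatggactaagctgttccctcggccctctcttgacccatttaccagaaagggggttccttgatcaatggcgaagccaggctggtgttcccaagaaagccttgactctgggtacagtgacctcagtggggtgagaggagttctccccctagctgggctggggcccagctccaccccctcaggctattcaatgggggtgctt
Serpina3n: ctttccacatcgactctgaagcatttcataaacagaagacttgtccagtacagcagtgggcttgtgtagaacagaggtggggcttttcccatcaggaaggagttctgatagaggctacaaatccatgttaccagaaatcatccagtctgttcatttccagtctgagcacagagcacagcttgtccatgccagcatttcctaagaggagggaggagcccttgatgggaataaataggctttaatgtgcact
Nes: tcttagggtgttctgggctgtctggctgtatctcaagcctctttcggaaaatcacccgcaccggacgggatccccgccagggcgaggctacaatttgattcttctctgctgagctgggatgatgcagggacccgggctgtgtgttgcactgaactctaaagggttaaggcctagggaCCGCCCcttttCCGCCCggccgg
Within the 250 bases before each start, 5 motifs were searched on both strands. These were TTCNNNGAA, which STAT factors bind, and TGANTCA, which factors of the AP-1 family bind. The others were CCAAT, which the factor NF-Y is known to bind, TATAAA, to which the general factor TBP binds, and finally GGGCGG, which Sp1 binds. Gfap and Serpina3n had 0 matches to any of them, and Nes had 2 matches to GGGCGG, at 73 and 62 bases before the start. TTCNNNGAA was found in 1 of the 8 windows, that of Steap4 at 116 bases before the start, and in 7.02% of all 32851 promoter windows. TGANTCA was found in 0 of the 8 and in 6.75% of all, and GGGCGG in 32.7% of all. A match says only that these letters stand in the window.

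Of 234022 kept cells in 23 libraries, 91589 fell into 6 clusters called astrocyte-like, which expressed 12 of 12 astrocyte markers in every library used (summed level 19251 to 28864 CPM, which is counts-per-million of the UMIs of that class in the library). Libraries with at least 20 such cells entered the tests. These were 8 of ATV-TfR, 8 of ATV-CD98hc and the 1 negative library of the control IgG, 17 in all, with 181 to 15034 astrocyte-like cells and 656783 to 63161883 UMIs each. From negative to high bin, astrocyte-like cells made up 18.7% to 30.3%, 84.6% to 89.1%, 75.0% to 76.3% and 2.37% to 3.06% of kept cells in ATV-TfR. In ATV-CD98hc they made up 55.1% to 55.6%, 65.8% to 69.9%, 7.27% to 8.92% and 1.61% to 1.83%. The positive bins of the control IgG held 2 to 14 astrocyte-like cells per library and were not used. Of 256352 barcode sequences, 8510 occurred in more than 1 library, and a pair of libraries shared at most 1.00% (median 0.472%). Counts were summed per library, divided by the library's astrocyte-like total and tested with edgeR across all 15958 genes that passed its filter. A gene was called at a Benjamini-Hochberg adjusted p under 0.05, and every difference below is a log2 difference. SE stands for an approximate standard error, the size of the difference divided by the square root of edgeR's F statistic. The pool is the replicate. UMIs measure RNA and not protein, and counting intervals cover counting error only.

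Over all bins, the genes differed in the cell types that held them. Each level below is the mean over pools of a class's CPM with its SD, and 17 classes had enough cells. Classes drew their cells from the bins in unlike shares, so the order of the classes depends on that mix. Gfap was highest in ependymal-like cells (70.3 ± 27.6, n = 5 pools) and astrocyte-like cells (51.4 ± 7.53), and the pools of these neighbours overlapped. In the negative bins alone, ependymal-like libraries with at least 20 cells measured 21.6 to 96.6 CPM and astrocyte-like libraries 25.2 to 43.0. Dividing cell-like cells followed (23.3 ± 10.1, n = 2 pools), and it was lower still in oligodendrocyte-like (7.74) and endothelial-like cells (1.10) and at 0 in neutrophil-like cells. Serpina3n had its highest mean in astrocyte-like cells (4.34 ± 0.40), whose pools overlapped those of neuron-like cells (3.44 ± 4.04, 0 to 9.90), followed by oligodendrocyte-like cells (2.26 ± 0.74). C4b was highest in border macrophage-like cells (93.2 ± 18.1), whose pools did not overlap the next class, astrocyte-like cells (30.8 ± 4.77). Fibroblast-like (27.5 ± 12.9) and oligodendrocyte-like cells (20.4 ± 8.62) followed.

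Like Gfap and C4b, the other 6 genes had their highest mean in cells other than astrocytes. Vim was highest in smooth muscle-like cells (3327 ± 419), and astrocyte-like cells were 15th of 17 classes with 22.1 ± 5.99. Nes was highest in endothelial-like (363 ± 18.9) and pericyte-like cells (170.3 ± 26.0), and astrocyte-like cells were 17th with 1.12 ± 0.34. Osmr, the receptor chain for oncostatin M, was highest in pericyte-like (100.2 ± 13.7) and endothelial-like cells (82.3 ± 11.3), with astrocyte-like cells 6th at 5.13 ± 0.52. Cd44 was highest in neutrophil-like cells (1211 ± 149.9, n = 3 pools) and 11th in astrocyte-like cells (6.00 ± 0.46). Lcn2 was highest in neutrophil-like cells (5292 ± 3248, n = 3 pools), with endothelial-like cells at 7.99 ± 8.89 and astrocyte-like cells at 0.061. Steap4, an iron and copper reductase of the membrane, was highest in fibroblast-like (98.5 ± 35.8) and pericyte-like cells (33.3 ± 6.24) and was 14th in astrocyte-like cells (0.010). In the negative bins alone, fibroblast-like libraries held 6.49 to 26.5 CPM of Steap4.

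**Figure D1:**
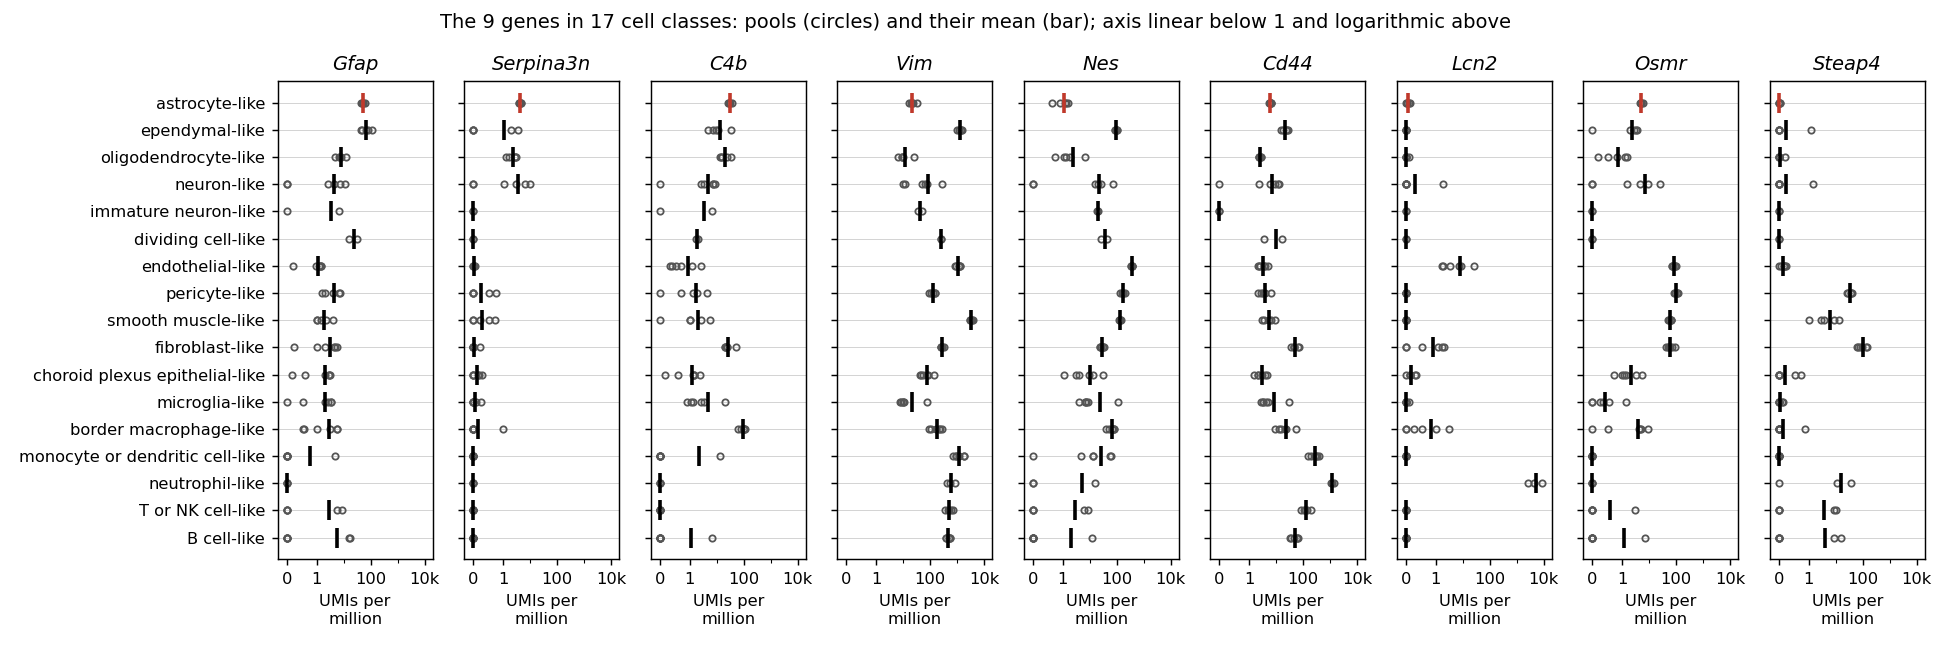
CPM of each gene (x axis, linear below 1 and logarithmic above) in 17 cell classes, with 1 circle per pool of at least 20 cells and a bar at the mean. The means of Gfap and Serpina3n are highest in ependymal-like and astrocyte-like cells, whereas the astrocyte-like row of Nes, at a mean of 1.12, is the lowest of the 17.

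Gfap, the main filament protein of astrocytes, rose step by step with the antibody signal in ATV-TfR. In the astrocyte-like cells of its 2 pools it measured 31.5 and 25.2 CPM in the negative bin, 38.9 and 34.0 in the low bin, 78.0 and 71.8 in the medium bin, and 285 and 265 in the high bin. The 4 bins did not overlap, and the high libraries stood far above the others. High was 9.70 times negative in the means, a difference of 3.40 (SE 0.14, edgeR adjusted p = 7.9e-12). Low against negative was not called (0.41, SE 0.14, adjusted p = 0.29). Medium exceeded low by 1.07 (SE 0.11, edgeR adjusted p = 2.7e-05) and high exceeded medium by 1.93 (SE 0.12, edgeR adjusted p = 1.9e-08). All 3 calls held with either ATV-TfR pool left out.

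In ATV-CD98hc, Gfap rose from negative to medium and was no higher in the high bin. It measured 27.4 and 25.4 CPM in the negative bin, 48.9 in both low libraries, 74.0 and 106 in the medium bin, and 56.0 and 62.4 in the high bin. The bins did not overlap, and the high libraries, with 44 and 41 Gfap UMIs, lay between low and medium. Low exceeded negative by 0.91 (SE 0.13, edgeR adjusted p = 0.00035) and medium exceeded low by 0.90 (SE 0.12, edgeR adjusted p = 6.0e-05). High against medium was -0.70 (SE 0.20, adjusted p = 0.17). High exceeded negative by 1.11 (SE 0.23, edgeR adjusted p = 0.0032), which is 2.24 times in the means. Without pool 2 of ATV-CD98hc that difference was 1.01 (adjusted p = 0.050). The control IgG negative library measured 43.0, above both ATVs' negative libraries, and neither ATV was called against it (edgeR adjusted p = 0.11 and 0.14). Against this library edgeR called 0 of 7 tested genes for ATV-TfR negative (0.539% of all) and 0 of 7 for ATV-CD98hc negative (0.0627%), with 4 and 3 at an unadjusted p under 0.05 and 0 by DESeq2.

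C4b encodes complement component 4, the substrate of the classical pathway's first protease. Its near-identical copy C4a had at most 35 UMIs in any of these libraries, and reads that fit both copies cannot be assigned, so C4b is the uncertain sum of what the authors' counting gave it. ATV-TfR libraries measured 20.0 and 14.6 CPM in the negative bin, 21.7 and 22.7 in low, 35.3 and 37.0 in medium, and 79.3 and 77.1 in high. The bins did not overlap, and the high libraries were again the highest. The high bin exceeded negative by 2.31 (SE 0.18, edgeR adjusted p = 9.3e-08), 4.52 times in the means. Medium exceeded low by 0.73 (SE 0.13, adjusted p = 0.0042) and high exceeded medium by 1.16 (SE 0.15, adjusted p = 0.00012). Left out in turn, pools 1 and 2 of ATV-TfR both gave 0.73 for medium against low, no longer called (adjusted p = 0.46 and 0.43), and high against medium was lost without pool 1 (1.09, adjusted p = 0.079).

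ATV-CD98hc libraries measured 23.8 and 27.4 CPM of C4b in the negative bin, 34.1 and 36.4 in low, 39.2 and 60.7 in medium, and 42.0 and 63.9 in high. Medium and high overlapped each other, and both lay above low and negative. The high bin exceeded negative by 1.00 (SE 0.27, edgeR adjusted p = 0.022) and medium exceeded low by 0.52 (SE 0.14, adjusted p = 0.033). Low against negative was 0.51 (SE 0.15, adjusted p = 0.067), and was called with the pool as a block (0.49, adjusted p = 0.0068), although same-pool deviations of these 2 bins correlated by -0.38. Pool 2 carried the higher medium and high values: without it, high against negative was 0.80 (adjusted p = 0.16) and medium against low 0.18 (adjusted p = 0.48). Medium against low was also lost without either ATV-TfR pool, at 0.52. All libraries share 1 fit, and the cause of this loss was not tested.

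Serpina3n, a secreted serine protease inhibitor, was called in the high bins of both ATVs at low counts. Reads shared with other members of the Serpina3 family could not be assigned with certainty. ATV-TfR libraries measured 2.59 and 2.69 CPM in negative, 3.17 and 3.39 in low, 4.52 and 5.67 in medium, and 8.00 and 7.21 in high. ATV-CD98hc libraries measured 2.87 and 1.85 in negative, 4.82 and 4.66 in low, 7.84 and 8.18 in medium, and 10.2 and 9.14 in high, the last from 8 and 6 UMIs. In both ATVs each bin lay above the one before it without overlap. The control IgG negative library measured 4.04, above the negative libraries of both ATVs and the low libraries of ATV-TfR. Cluster 6, the astrocyte-like cluster richest in Serpina3n, made up more of the high than of the negative bins (below). High exceeded negative by 1.65 in ATV-TfR (SE 0.32, edgeR adjusted p = 0.0014) and by 1.90 in ATV-CD98hc (SE 0.45, edgeR adjusted p = 0.010). The ATV-CD98hc steps low over negative (0.94, SE 0.21, adjusted p = 0.016) and medium over low (0.78, SE 0.19, adjusted p = 0.016) were called, as was ATV-TfR medium over low (0.66, SE 0.15, adjusted p = 0.037). ATV-TfR high against negative was 1.50 without its pool 1 (adjusted p = 0.15) and 1.78 without its pool 2 (adjusted p = 0.044), and ATV-CD98hc high against negative was 2.24 without its pool 1 (adjusted p = 0.10) and 1.80 without its pool 2 (adjusted p = 0.14). Each of the 3 single-step calls was lost without either pool of its own ATV, at 0.54 to 1.36.

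Osmr lets oncostatin M signal through gp130. ATV-TfR libraries measured 4.31 and 3.08 CPM in negative, 3.19 and 3.59 in low, 5.45 and 6.77 in medium, and 13.3 and 18.9 in high. Negative and low overlapped, and medium and high each lay above them. High exceeded negative by 2.23 (SE 0.36, edgeR adjusted p = 0.00026), 4.37 times in the means. High over medium was 1.42 (SE 0.29, adjusted p = 0.0087) and medium over low 0.87 (SE 0.21, adjusted p = 0.044). Without pool 2 of ATV-TfR, high against negative was 1.78 (adjusted p = 0.064), and both steps were lost without either pool (0.80 to 1.51). ATV-CD98hc libraries measured 4.67 and 5.12 in negative, 5.16 and 5.60 in low, 4.71 and 10.4 in medium, and 8.91 and 1.52 in high. The high pair, from 7 and 1 UMIs, lay on both sides of the negative pair, and high against negative was 0.15 (SE 0.70, adjusted p = 0.94).

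Vim, a filament protein of many supporting and vessel cells, was higher in the ATV-TfR high bin. Its ATV-TfR libraries measured 28.7 and 21.1 CPM in negative, 25.7 and 19.1 in low, 37.1 and 25.2 in medium, and 68.3 and 50.1 in high. The first 3 bins overlapped, and the high pair lay above all of them. The high bin exceeded negative by 1.40 (SE 0.27, edgeR adjusted p = 0.0016) and medium by 1.00 (SE 0.24, adjusted p = 0.026). Without pool 1 of ATV-TfR the first was 1.33 (adjusted p = 0.050) and the second 1.02 (adjusted p = 0.37), and without pool 2 the second was 0.95 (adjusted p = 0.23). Medium over low was 0.51 (adjusted p = 0.34) and was called with the pool as a block (0.50, adjusted p = 0.0023). ATV-CD98hc libraries measured 12.6 and 21.3 in negative, 18.1 and 19.2 in low, 16.5 and 28.1 in medium, and 19.1 and 24.4 in high. These 4 bins overlapped, and high against negative was 0.38 (SE 0.55, adjusted p = 0.77).

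Nes, the intermediate filament of progenitors and of endothelium, was close to the lower limit of counting. ATV-TfR libraries measured 0.72 and 0.77 CPM in negative, 0.46 in both low libraries, 1.12 and 0.76 in medium, and 5.66 and 3.16 in high, the last from 17 and 7 UMIs. ATV-CD98hc libraries measured 0.20 and 0.57 in negative, 0.55 and 0.85 in low, 7.69 and 7.73 in medium, and 8.91 and 1.52 in high, the last from 7 and 1 UMIs. The high pair of ATV-TfR and the medium pair of ATV-CD98hc lay above the bins below them, while the high pair of ATV-CD98hc spread around its medium pair. High exceeded negative by 2.73 in ATV-TfR (SE 0.58, edgeR adjusted p = 0.0032) and by 4.04 in ATV-CD98hc (SE 0.92, edgeR adjusted p = 0.0078), and ATV-CD98hc medium exceeded low by 3.43 (SE 0.32, adjusted p = 4.5e-07). Summed endothelial markers were 303 to 322 CPM in that medium pair against 34.1 to 37.6 in low. Without the cells richest in these markers, Nes in the medium pair was 5.39 and 2.73 CPM (2.68 over low, adjusted p = 0.00053), and the ATV-CD98hc high call was lost (3.08, adjusted p = 0.19). Pool 1 decided both high calls: without it ATV-TfR gave 2.11 (adjusted p = 0.32) and ATV-CD98hc 1.35 (adjusted p = 0.73). ATV-TfR high over medium, 2.33 (SE 0.46, adjusted p = 0.0075), was lost without pool 1 (2.07, adjusted p = 0.70) and without pool 2 (2.41, adjusted p = 0.12).

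Cd44, a receptor that binds hyaluronan of the matrix, was called in 0 of 15 comparisons of astrocyte-like cells by edgeR and by DESeq2, and 4 of the 15 had an unadjusted p under 0.05. ATV-TfR libraries measured 4.02 and 3.72 CPM in negative, 5.14 and 5.59 in low, 5.43 and 7.45 in medium, and 5.66 and 7.21 in high. The negative pair was the lowest of these, low lay below high, and medium overlapped both. The control IgG negative library measured 6.32, between the 2 ATV-TfR high libraries. High against negative was 0.83 in ATV-TfR (SE 0.33, adjusted p = 0.099) and 0.74 in ATV-CD98hc (SE 0.42, adjusted p = 0.36), where the high pair measured 11.5 and 9.14 against 6.61 and 5.12, with 5.96 and 6.08 in low and 6.59 and 5.65 in medium. Lcn2 and Steap4 did not pass the filter on low counts, so 7 of the 9 genes were tested. Lcn2 had 23 UMIs over the 17 libraries (0 to 0.45 CPM) and Steap4 had 6 (0 to 0.04 CPM), and no change of either was detectable at this depth.

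**Figure D2:**
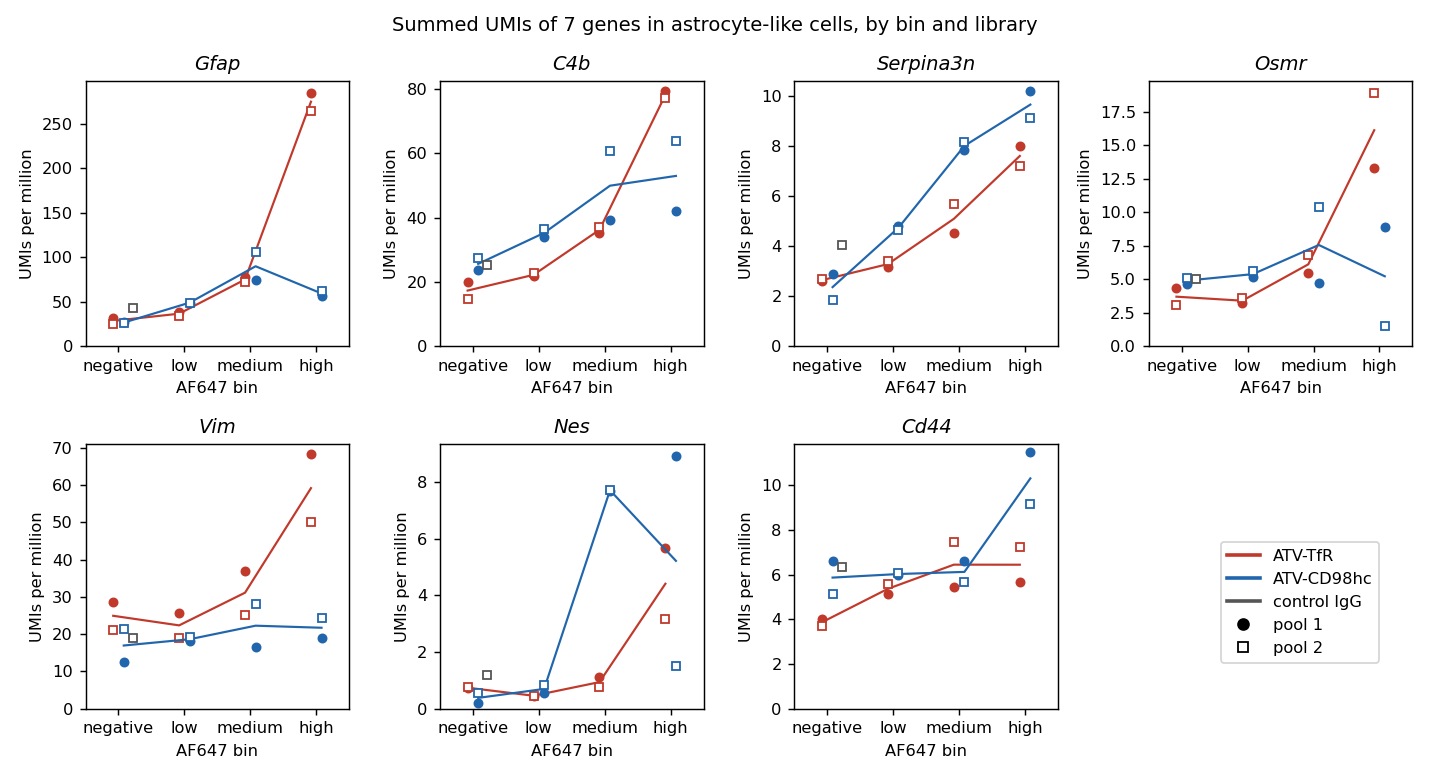
CPM of 7 genes in astrocyte-like cells (y axis) by bin (x axis), with 1 point per library and lines through the mean of the 2 pools. Gfap reached 265 to 285 in the ATV-TfR high bin and 56.0 to 62.4 in the ATV-CD98hc high bin.

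Of the 7 tested genes, 6 were called higher in high than in negative ATV-TfR libraries and 0 lower, where 9.58% of all tested genes were called higher. In ATV-CD98hc 4 were called higher and 0 lower, where 3.98% of all were higher. The median difference of the 7 was 2.23 and 1.00, beside -0.03 and -0.04 over all tested genes. From negative to low, edgeR called 0 of 7 in ATV-TfR (1.51% of all in either direction, 3 at an unadjusted p under 0.05, 0 by DESeq2) and 2 higher in ATV-CD98hc (1.61% of all higher). From low to medium, 4 were called higher in ATV-TfR (0.558% of all higher) and 4 in ATV-CD98hc (3.25%). From medium to high, 5 were called higher in ATV-TfR (2.04%) and 0 in ATV-CD98hc by edgeR (0.545% in either direction, 1 at an unadjusted p under 0.05, 0 by DESeq2). The comparisons share libraries, so these counts are not independent of each other. A gene passes the filter on low counts if as few as 1 library reaches its threshold. Nes exceeded 1.18 CPM only in the ATV-TfR high and the ATV-CD98hc medium and high libraries. It was thus tested only because of bins in which it was called higher. Its part in these counts, and in that of the medium bins below, was partly fixed beforehand.

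**Figure D3:**
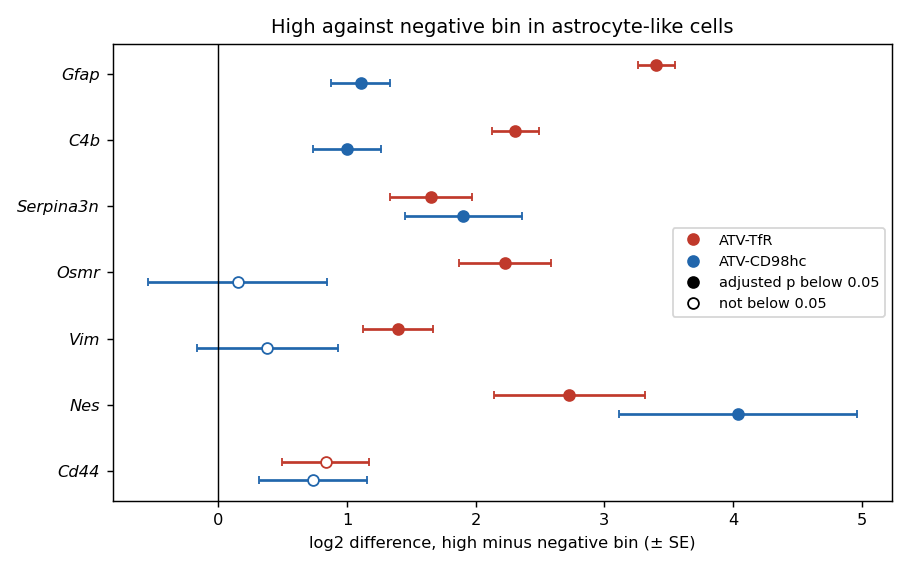
Difference between high and negative bins in astrocyte-like cells (x axis, log2) for each of the 7 tested genes, with bars of 1 SE. Filled points, 6 in ATV-TfR and 4 in ATV-CD98hc, have an edgeR adjusted p below 0.05.

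The difference between the ATVs was itself tested for high against negative. It was called for 2 of 7 genes, both larger in ATV-TfR (5.06% of all genes called in that direction). With DESeq2 3 of 7 were called, Osmr in addition. Gfap's difference was larger by 2.30 (SE 0.25, edgeR adjusted p = 1.0e-05) and C4b's by 1.31 (SE 0.30, edgeR adjusted p = 0.010). The C4b value was 1.49 without pool 1 of ATV-TfR (adjusted p = 0.051) and 1.15 without its pool 2 (adjusted p = 0.12), and the Gfap call held without any 1 pool. In cluster 2 alone, with 1 ATV-CD98hc high library, neither was called (Gfap 0.91, adjusted p = 0.69, and C4b 0.23, adjusted p = 0.94). With 3 unnamed sub-clusters that pass the astrocyte list added, the Gfap value was 1.63 (adjusted p = 0.0037) and that of C4b 1.21 (adjusted p = 0.018). Osmr (2.08, adjusted p = 0.081) and Vim (1.01, adjusted p = 0.34) were called with the pool as a block (2.12, adjusted p = 0.032, and 1.00, adjusted p = 0.048). Serpina3n (-0.25, SE 0.51), Cd44 (0.10, SE 0.51) and Nes (-1.31, SE 1.04) were not called.

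Set against each other bin by bin, the genes called in the low and medium bins were lower in ATV-TfR, and those called in the high bins were higher. In the negative bins edgeR called 0 of 7 genes (0.902% of all), with 3 at an unadjusted p under 0.05 and 0 by DESeq2. In the low bins Gfap (-0.41, SE 0.11, edgeR adjusted p = 0.047) and C4b (-0.66, SE 0.13, adjusted p = 0.0032) were lower in ATV-TfR than in ATV-CD98hc, 2 of 7 where 2.61% of all were lower. With DESeq2 the Gfap call was lost (-0.43, adjusted p = 0.055). In the medium bins Nes (-3.01, SE 0.30, edgeR adjusted p = 1.1e-06), Serpina3n (-0.63, SE 0.19, adjusted p = 0.021) and C4b (-0.45, SE 0.14, adjusted p = 0.031) were lower in ATV-TfR, 3 of 7 where 8.48% were lower. In the high bins Gfap (2.39, SE 0.19, edgeR adjusted p = 2.3e-07) and Vim (1.65, SE 0.47, adjusted p = 0.027) were higher in ATV-TfR, 2 of 7 where 7.8% were higher, and C4b missed the threshold (0.75, SE 0.25, adjusted p = 0.052). With DESeq2 4 of 7 were called in the high bins, C4b and Osmr in addition. The low-bin calls and the medium-bin calls of Serpina3n and C4b were lost without either ATV-TfR pool (Gfap -0.50 and -0.33, C4b -0.62 and -0.70 in low and -0.40 and -0.49 in medium, Serpina3n -0.47 and -0.81). Without an ATV-CD98hc pool, medium-bin Serpina3n was -0.66 or -0.58 and not called, and medium-bin C4b was -0.07 without pool 2. Vim in the high bin was 1.37 without pool 1 of ATV-TfR (adjusted p = 0.075), 1.49 without pool 1 of ATV-CD98hc (adjusted p = 0.24) and 1.83 without its pool 2 (adjusted p = 0.11). The high-bin Gfap and medium-bin Nes calls held without any 1 pool. These comparisons share their libraries with those between bins and are no separate support for them.

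Endothelial RNA in the same cells was higher in the medium and high bins than in the negative bin of both ATVs, and in ATV-CD98hc it was lower in high than in medium. The 12 endothelial markers summed to 9.05 to 11.5 CPM in the ATV-TfR negative bin, 7.31 to 10.3 in low, 27.2 to 37.5 in medium and 204 to 245 in high, and at most 1 of the 12 was at 0 in any library. In ATV-CD98hc they summed to 6.81 to 12.4, 34.1 to 37.6, 303 to 322 and 181 to 188, and in the control IgG negative library to 40.8. Endothelial-like cells of the same 17 libraries held 22445 to 28567 CPM. UMIs of the members were therefore set against those of the 12 endothelial markers. Per 100 endothelial-marker UMIs, astrocyte-like cells of the ATV-TfR high bin had 117 to 130 Gfap UMIs, 32.4 to 37.7 of C4b, 24.5 to 27.9 of Vim and 5.45 to 9.27 of Osmr. Endothelial-like cells had at most 0.0282 of Gfap and 0.0142 of C4b in any of these 17 libraries, and 4.25 to 4.37 of Vim and 0.275 to 0.295 of Osmr in that bin. For Nes the ratio in astrocyte-like cells was 6.67 to 7.94 in the ATV-TfR negative bin, 4.49 to 6.28 in low, 2.80 to 2.98 in medium and 1.55 to 2.32 in high. In ATV-CD98hc it was 2.94 to 4.60 in negative, 1.60 to 2.27 in low, 2.40 to 2.53 in medium and 0.840 to 4.73 in high. Endothelial-like cells had 1.08 to 1.49 over the same 17 libraries, and the other control IgG libraries were not used for these ratios. The part of endothelial RNA in these results was not tested.

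**Figure D4:**
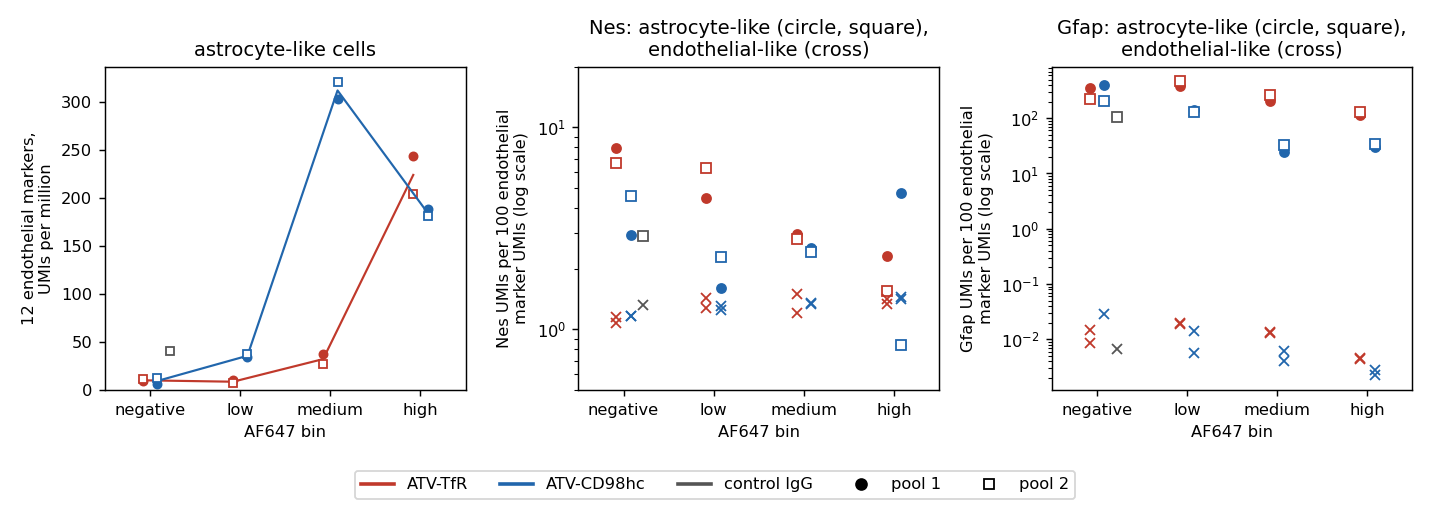
Left, summed CPM of the 12 endothelial markers in astrocyte-like cells by bin; middle and right, Nes and Gfap UMIs per 100 endothelial-marker UMIs on log axes, with astrocyte-like libraries as circles and squares and endothelial-like libraries as crosses. In the medium and high bins the Nes points run from 0.840 to 4.73 and the Nes crosses of all bins from 1.08 to 1.49, and every Gfap point lies above every Gfap cross; libraries with 0 UMIs are left out.

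Cells with more than 0.1% of their UMIs from endothelial markers were left out as an alternative. This kept 91.3% to 100% of the astrocyte-like cells per library. Gfap then differed between high and negative by 3.39 in ATV-TfR (edgeR adjusted p = 4.2e-11) and 1.13 in ATV-CD98hc (adjusted p = 0.0040), and C4b by 2.32 and 0.96 (adjusted p = 0.043 for ATV-CD98hc). Serpina3n (1.69 and 1.94), Osmr in ATV-TfR (2.24) and Vim in ATV-TfR (1.33) moved little. Nes fell to 4.46 and 1.40 CPM in the ATV-TfR high libraries, to 5.39 and 2.73 in ATV-CD98hc medium, and to 5.20 and 0 in ATV-CD98hc high. Its high-against-negative difference was 2.47 in ATV-TfR (adjusted p = 0.032) and no longer called in ATV-CD98hc (3.08, adjusted p = 0.19). Doublets were removed within libraries, and a cluster of 2353 cells that carried both endothelial and astrocyte markers was left unnamed and out of all these values.

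Other marker lists moved too. The 9 ependymal markers, from cells that are themselves rich in Gfap and Vim, summed to 53.7 to 63.1 CPM in ATV-TfR negative and 102 to 106 in high, and to 55.3 to 74.2 and 104 to 129 in ATV-CD98hc, with Ccdc153, Tmem212 and Rsph1 at 0 in at least 1 high library of each ATV. This sum includes Tm4sf1, which is also expressed by endothelial cells and was called higher in both ATVs (below), so it does not measure ependymal RNA alone. The 10 microglia markers summed to 162 to 191 CPM in ATV-TfR negative and 115 to 146 in high, with up to 6 of 10 at 0 in high, and to 128 to 135 and 115 to 125 in ATV-CD98hc. The 9 fibroblast markers went from 48.4 to 53.0 down to 24.3 to 29.8 in ATV-TfR and were 37.7 to 41.7 and 31.8 to 39.6 in ATV-CD98hc. Astrocyte markers summed to 19382 to 19990 in ATV-TfR negative and 28853 to 28864 in high. Median UMIs per astrocyte-like cell were 3977 to 4446 in ATV-TfR negative and 4998 to 5632 in high, and 3707 to 4124 and 2886 to 4298 in ATV-CD98hc. Mitochondrial UMIs made up 2.18% to 2.27% in ATV-TfR negative and 3.896% to 4.15% in high. In ATV-CD98hc they made up 2.63% to 3.08% in negative, 3.70% to 4.90% in medium and 3.16% to 3.24% in high. The part of ependymal RNA, depth and mitochondrial share in the results for the 9 genes was not tested.

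The share of cluster 2 was higher in high than in negative for ATV-TfR and lower for ATV-CD98hc, so the genes were also read within clusters. Cluster 2, led by Aldoc, Cspg5 and Fjx1, made up 34.4% to 36.9% of astrocyte-like cells in ATV-TfR negative and 50.9% to 55.4% in high, but 41.1% to 53.6% and 7.73% to 12.3% in ATV-CD98hc. Cluster 6, led by Agt and Itih3, made up 12.6% to 14.1% in ATV-CD98hc negative and 37.3% to 51.4% in high, and 8.10% to 9.77% and 21.7% to 24.3% in ATV-TfR. Cluster 7, led by Gria1 and Kcnd2, made up 5.14% to 10.4% in ATV-CD98hc negative and 26.0% to 35.3% in high. Cluster 22, a small cluster with 129 to 182 CPM of Gfap in ATV-TfR negative, made up 5.89% to 9.75% there and 1.06% to 3.04% in high. Among region markers, the 5 markers of telencephalic astrocytes all fell in ATV-CD98hc high against negative (among them Lhx2 by 2.44 and Emx2 by 2.61), and 5 of 8 non-telencephalic markers rose (Itih3 by 2.33), beside 3.87% of all tested genes lower and 3.98% higher. In ATV-TfR 2 telencephalic markers rose and 1 fell, and 4 non-telencephalic markers rose and 1 fell, beside 9.58% of all higher and 6.65% lower. Within cluster 2, Gfap measured 38.5 to 40.7, 48.0 to 60.9, 98.6 to 123 and 337 to 387 CPM over the 4 ATV-TfR bins, none overlapping. In ATV-CD98hc it measured 32.5 to 38.1, 74.6 to 83.9 and 166 to 224 in the first 3 bins and 201 in the 1 high library with enough cells.

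Gfap rose with the ATV-TfR signal inside each of the 3 large clusters. High exceeded negative by 3.33 in cluster 2 (edgeR adjusted p = 6.2e-12), by 3.52 in cluster 3 (adjusted p = 8.0e-06) and by 3.12 in cluster 6 (adjusted p = 1.4e-09). For ATV-CD98hc it was 2.42 in cluster 2 (adjusted p = 0.064, 1 high library), -0.071 in cluster 3 (adjusted p = 0.999, 1 high library) and 0.67 in cluster 6 (adjusted p = 0.56), none called. The difference between the ATVs was 0.91 in cluster 2 (adjusted p = 0.69), 3.59 in cluster 3 (adjusted p = 0.47) and 2.45 in cluster 6 (adjusted p = 0.012), so it was called in the whole class and in cluster 6. C4b in ATV-TfR exceeded negative by 2.41 in cluster 2 (adjusted p = 6.3e-09) and 1.50 in cluster 6 (adjusted p = 0.0018) and was 1.74 in cluster 3 (adjusted p = 0.12). Its difference between the ATVs was called in no single cluster (0.23 in cluster 2, 2.48 in cluster 3 and 0.86 in cluster 6). Serpina3n was 10.96 CPM in cluster 6 and 2.395 in cluster 2 over all libraries. Within cluster 6 it measured 14.2 and 10.2 CPM in ATV-TfR negative and 17.4 and 20.0 in high, and 5.75 and 5.25 and then 12.9 and 6.31 in ATV-CD98hc. The part of cluster shares in its rise was not tested. Cluster shares and levels within clusters could not be separated further, since ATV-CD98hc high held few cells of cluster 2.

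**Figure D5:**
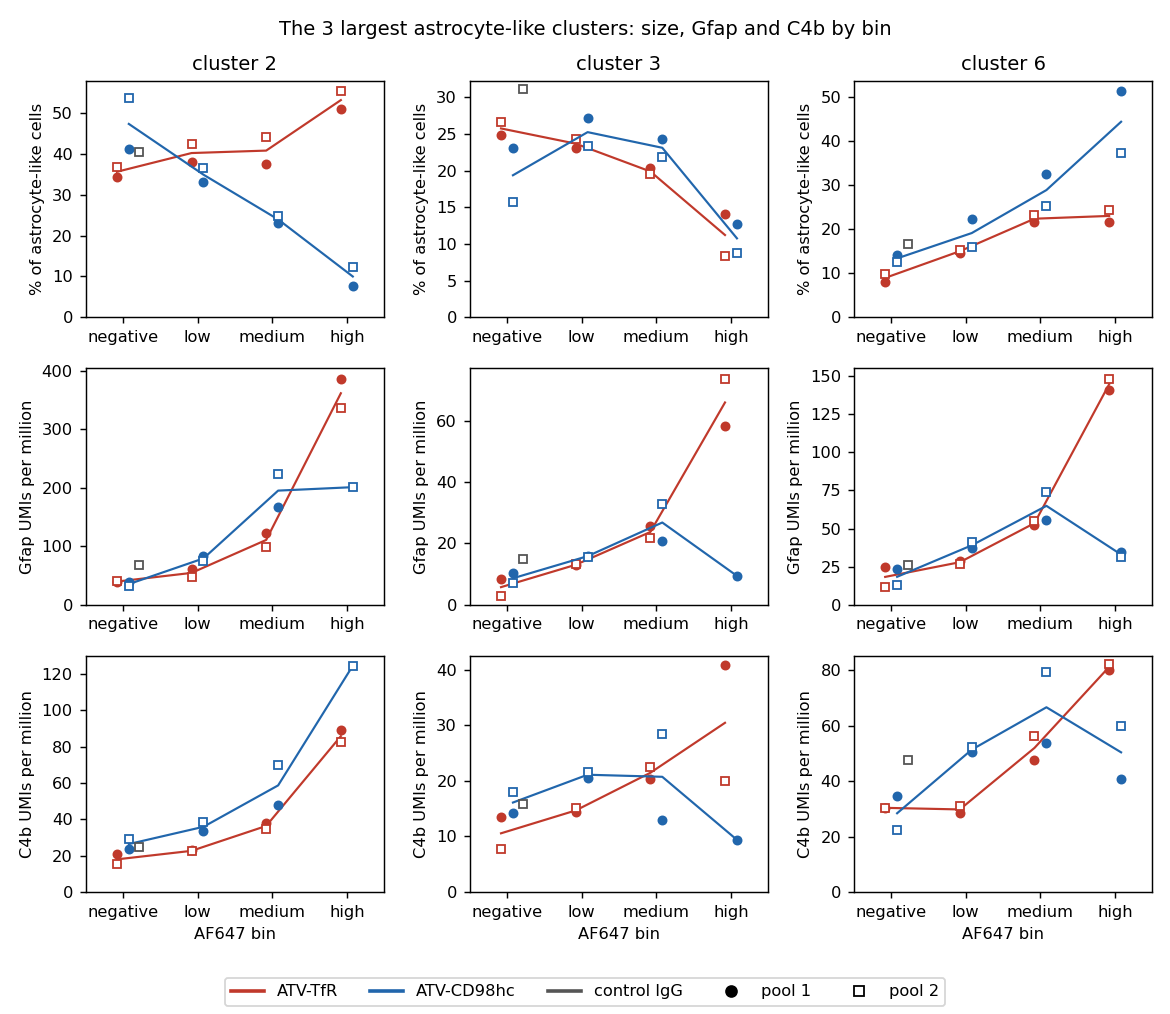
Share of astrocyte-like cells (top, percent), Gfap (middle) and C4b (bottom, both in CPM) in the 3 largest astrocyte-like clusters by bin, with 1 point per library and lines through the mean. Gfap in the ATV-TfR high bin was 337 to 387 in cluster 2 and 141 to 148 in cluster 6.

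The share of cells with a Gfap UMI was highest in the ATV-TfR high bin, and in ATV-TfR it overlapped between negative and low. Each cell was thinned to 1000 UMIs, which left out 684 shallower cells (0.217% to 3.92% per library). In ATV-TfR, 3.19% and 2.63% of astrocyte-like cells had a Gfap UMI in negative, 2.96% and 2.88% in low, 5.88% and 5.84% in medium, and 19.4% and 21.1% in high. In ATV-CD98hc they were 2.41% and 2.09%, 4.02% and 3.94%, 6.06% and 7.59%, and 7.87% and 3.06%, where the high pair was split around low and medium. Without thinning the shares were 7.91% to 8.61% in ATV-TfR negative and 47.5% to 48.6% in high, and 7.22% to 8.04% and 12.7% to 15.2% in ATV-CD98hc. Endothelial-like cells, which should lack Gfap, had a thinned median share of 0.127% over 21 libraries (median depth 2032 to 4928 UMIs, astrocyte-like 2886 to 5632). The top 1% of cells held 46.8% and 43.4% of all Gfap UMIs in the ATV-TfR negative libraries and 12.2% and 12.5% in the high ones. This share depends on the share of cells with a Gfap UMI and is no separate measure. For C4b the thinned shares were 1.76% and 1.93% in ATV-TfR negative and 5.68% and 7.47% in high, and 2.27% and 3.14% and then 3.37% and 4.08% in ATV-CD98hc, against a median of 0.0346% in endothelial-like cells.

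Cells with a Gfap UMI were set against those without. Over 15 libraries with enough cells of both kinds, Vim was higher in cells with Gfap in 14 (median over libraries 42.1 against 19.8 CPM) and C4b in 13 (82.4 against 34.9). Serpina3n (7.01 against 4.53) and Osmr (9.24 against 3.82) were higher by the median and with all cells pooled, on 31 and 37 UMIs in the cells with Gfap. By library, each was higher in only 9 of the 15 and lower in 6. Cd44 and Nes gave no direction, on 24 and 8 UMIs in the cells with Gfap. Each was lower there in 9 libraries by the median (Cd44 2.67 against 5.10, Nes 0 against 0.87) and higher with all cells pooled (Cd44 6.28 against 5.42, Nes 2.09 against 1.03). Both kinds of cell were thinned to the same depth, and these values are a description with no test. Clusters 2 and 22 were the highest astrocyte-like clusters in both Gfap and Vim, and the cells were not compared within clusters.

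Genes around the 9 members were read from lists, each by how many tested members were called and by its median difference. The gp130 and STAT3 list holds genes of several interleukin 6 family cytokines and receptors, and not of the route of OSMR alone. Of its 17 tested genes, 6 rose and 1 fell in ATV-TfR from the negative to the high bin (median 0.33), beside 9.58% of all tested genes higher and 6.65% lower. The shared chain Il6st rose by 0.42 (SE 0.11, edgeR adjusted p = 0.016), Stat3 by 0.61 (SE 0.11, adjusted p = 0.00064) and the cytokine Lif by 1.25 (SE 0.41, adjusted p = 0.041), while Il6ra fell by 2.04 (SE 0.64, adjusted p = 0.035). In ATV-CD98hc the median of the 17 was 0.06, and Cntfr, the receptor for ciliary neurotrophic factor, was lower (-0.68, SE 0.13, edgeR adjusted p = 0.0025), beside 3.87% of all tested genes lower. Of the 11 genes linked to astrocytes after inflammation, 7 were higher in ATV-TfR (median 1.21) and 4 in ATV-CD98hc (median 1.40), and 0 were lower, beside 9.58% and 3.98% of all tested genes higher. The class I antigen gene H2-D1 rose by 1.24 and 1.19, Srgn by 2.74 and 4.32 and Ggta1 by 1.21 and 1.88. Srgn and other genes of this list are also expressed by endothelial cells, whose markers rose in these libraries, and that part was not tested. The part of endothelial or microglial RNA in the gp130 and STAT3 list was not tested either.

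The small lists that follow are read against the same 9.58% of all genes higher in ATV-TfR and 3.98% in ATV-CD98hc, and a count of 1 in so few genes is not a result about a list. Endothelial markers were higher in the same high libraries (above), and their part in the differences of these genes, Hspb1 among them, was not tested. Of the other pan-reactive genes, 1 of 5 tested was higher in ATV-TfR and 2 in ATV-CD98hc. The small heat shock gene Hspb1 rose in both, by 3.53 (SE 0.29, edgeR adjusted p = 1.2e-07) and 3.71 (SE 0.55, adjusted p = 0.00013), and Aspg rose in ATV-CD98hc by 2.13. Of the genes linked to ischaemia, 5 of 12 were tested, and 2 were higher in ATV-TfR (Tm4sf1 by 2.42, S100a10 by 1.34) and 1 in ATV-CD98hc (Tm4sf1 by 3.18). Tm4sf1 is also expressed by endothelial cells and stands in the ependymal marker list, and the part of either in its difference was not tested. Among the partners of the filaments 1 of 8 was higher in each ATV, the linker Plec, by 0.57 and 0.79. Of 9 tested genes around CD44, 5 were higher in ATV-TfR, the matrix proteoglycans Ncan (0.79) and Vcan (0.74) and the linkers Msn (0.76), Rdx (0.46) and Ezr (0.41), and in ATV-CD98hc Ezr was lower (-1.65) and 0 were higher. Among lipocalin receptors and STEAP genes, 1 of 4 was higher in ATV-TfR, the lipocalin receptor gene Slc22a17 (0.57), and 0 in ATV-CD98hc.

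In the complement list around C4, 0 of 9 tested genes were higher in ATV-TfR and 3 were lower (6.65% of all lower), C1qa (-4.44), C1qb (-4.54) and C1qc (-4.86), the microglial genes whose products start the pathway. These 3 are made by microglia, whose summed markers were lower in that bin by a smaller factor (above), and that part was not tested. In ATV-CD98hc 0 of 9 were called (median -0.91). Of the 8 fibrous and surface astrocyte markers, 5 were higher in ATV-TfR (9.58% of all), among them Thbs4 (2.05), Id1 (1.24) and Fabp7 (0.91). In ATV-CD98hc Fabp7 was higher (0.54) and Ccn1 (-1.56) and Id4 (-0.70) lower (3.98% of all higher and 3.87% lower). Of 11 dissociation and stress genes, 2 were higher in ATV-TfR (Hsp90aa1 by 0.80, Jund by 0.40) where 9.58% of all were, and 1 was lower in ATV-CD98hc (Jun, -1.05) where 3.87% of all were.

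Outside astrocyte-like cells, members were called in high against negative bins in 4 classes with 2 high libraries each, the endothelial-like, pericyte-like, fibroblast-like and choroid plexus epithelial-like cells. In endothelial-like cells Nes rose from 242 and 257 CPM to 378 and 352 in ATV-TfR (0.86, SE 0.17, edgeR adjusted p = 0.0013) and from 291 and 277 to 405 and 391 in ATV-CD98hc (0.72, SE 0.18, adjusted p = 0.016). It was the only member called there, where 5.07% and 1.84% of all genes were higher. Leaving out either pool of either ATV, or scaling by DESeq2's size factors, ended the ATV-CD98hc call (0.48 to 0.67), and leaving out either pool of ATV-TfR ended the ATV-TfR call (0.59 and 0.75). With the pool as a block Osmr was also called there in ATV-CD98hc (0.82, adjusted p = 0.044, against 0.80 and 0.11 without it). The negative libraries of both ATVs held 57 to 124 endothelial-like cells each. The control IgG negative library, with 2476 such cells, measured 365 CPM of Nes, inside the range of the ATV high libraries. The control IgG low libraries measured 330 and 353. The low libraries measured 334 and 304 in ATV-TfR and 336 and 317 in ATV-CD98hc. In pericyte-like cells Nes rose by 0.96 in ATV-CD98hc (164 and 139.5 to 296 and 303 CPM, SE 0.25, edgeR adjusted p = 0.044) and by 0.76 in ATV-TfR (152 and 132 to 250.2 and 225, SE 0.21, adjusted p = 0.043). Vim rose by 1.24 in ATV-CD98hc (74.9 and 96.3 to 148 and 225 CPM, SE 0.32, adjusted p = 0.039). The 12 endothelial markers summed in these pericyte-like cells to 940.4 to 997 CPM in ATV-CD98hc negative and 2344 to 3950.1 in high, and to 867 to 880.3 and 3255 to 3282 in ATV-TfR, and their part was not tested. In pericyte-like cells 1.3% of all genes were higher in ATV-CD98hc and 2.13% in ATV-TfR. Each of the 3 pericyte calls was lost without either pool of its own ATV (Nes 1.12 and 0.73 in ATV-CD98hc, 0.76 and 0.74 in ATV-TfR, and Vim 1.22 and 0.86) and with DESeq2. Both ATV-CD98hc calls were also lost without either ATV-TfR pool, and the ATV-TfR call without control IgG pool 2. With the pool as a block Vim was called in ATV-TfR as well (0.78, adjusted p = 0.0093, against 0.11 without it).

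In fibroblast-like cells 3 members were higher in the ATV-CD98hc high bin, where 4.98% of all genes were higher. Cd44 went from 0 and 10.4 CPM (0 and 1 UMIs) to 74.2 and 96.1 (40 and 49 UMIs), a difference of 4.35 (SE 0.77, edgeR adjusted p = 0.00025), and was 3.16 without pool 1 (adjusted p = 0.071). Steap4 went from 6.49 and 10.4 to 128 and 139 (4.03, SE 0.60, adjusted p = 2.5e-05) and Osmr from 26.0 and 10.4 to 79.8 and 72.5 (1.93, SE 0.56, adjusted p = 0.024). Osmr was lost without pool 1 (2.76, adjusted p = 0.19) or pool 2 (1.62, adjusted p = 0.21), and with DESeq2 (1.87, adjusted p = 0.0999). The control IgG showed the same direction, with Cd44 from 10.6 in its 1 negative library to 60.5 and 59.9 (2.51, SE 0.59, adjusted p = 0.0034) and Steap4 from 26.5 to 81.5 and 113 (1.92, SE 0.44, adjusted p = 0.0029), where 5.19% of all were higher. ATV-TfR held too few fibroblast-like cells in its high bin for a test. Endothelial markers summed in fibroblast-like cells to 259 to 370.0 CPM in ATV-CD98hc negative and 766 to 1055 in high, and to 347 and then 818 to 886 in control IgG, and their part was not tested. The class joins 2 clusters with unlike levels over all libraries. Cluster 23 had 9.75 CPM of Cd44, 12.5 of Steap4 and 36.7 of Osmr, and cluster 29 had 74.6, 150 and 79.8. The part of their shares in these differences was not tested.

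In choroid plexus epithelial-like cells Nes was called higher, and endothelial RNA was higher with it. Nes had 22 to 130 UMIs in the ATV-TfR high and the ATV-CD98hc medium and high libraries of this class. Any other library of the class had at most 15. As in astrocyte-like cells, Nes was thus tested only because of bins in which it was high. Its 2 calls here were partly fixed beforehand. In ATV-CD98hc both negative libraries had 0 Nes UMIs and the high ones had 51 and 39 (30.2 and 24.5 CPM), at least 11.5-fold higher than a floor of 3 counts over the negative group (27.4 against 2.38 CPM, both pools together). The edgeR adjusted p was 0.00070, and the call was lost without pool 1 (adjusted p = 0.059). In ATV-TfR it went from 2.26 and 2.16 CPM to 50.4 and 20.4 (3.85, SE 0.74, edgeR adjusted p = 0.00041), and was 3.02 without pool 1 (adjusted p = 0.10), where 10.5% of all genes were higher, beside 13.9% in ATV-CD98hc. The 12 endothelial markers rose there from 73.3 to 76.0 CPM to 1299 to 3078 in ATV-TfR and from 45.1 to 56.0 to 1658 to 1933 in ATV-CD98hc. Nes per 100 endothelial-marker UMIs was 1.48 to 1.64 in these high libraries, and 1.08 to 1.49 in endothelial-like cells of the 17 libraries. In neuron-like cells of ATV-CD98hc Vim measured 20.9 and 0 CPM in negative and 462 in the 1 high library, which held 20 cells, so that this bin has no spread of its own and no call is drawn from it. There the endothelial markers summed to 7693 CPM against 6.98 to 63.1 in negative. In microglia-like cells of ATV-CD98hc edgeR called 0 of 5 tested members (2.54% of all genes in either direction, 2 at an unadjusted p under 0.05), while DESeq2 called 2. With the pool as a block Vim (2.58, adjusted p = 0.011) and Nes (2.63, adjusted p = 0.039) were called there. In border macrophage-like cells it called 0 of 4 in ATV-TfR (7.89%) and 0 of 4 in control IgG (0.263%), each with 2 at an unadjusted p under 0.05 and 0 by DESeq2. With the block, C4b (1.77, adjusted p = 0.012) and Cd44 (-2.62, adjusted p = 0.013) were called in those of ATV-TfR, and Vim was called in ATV-TfR choroid plexus epithelial-like cells (0.84, adjusted p = 0.026). In border macrophage-like cells of control IgG, with 1 negative library, Vim was -1.94 with the block, and no call is drawn from it. In choroid plexus epithelial-like cells of the control IgG 0 of 6 were called (9.35%), with 0 at an unadjusted p under 0.05 and 0 by DESeq2.

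Across the 17 classes, the genes with the pattern most like each member were ranked by Pearson's r over log2(CPM + 1) among 14381 genes that reached 20 CPM in a class. This is a description over 17 points that share libraries and depth, and Serpina3n itself stayed under 20 CPM in every class. Gfap was followed by Gm20743 (0.90), Mlc1 (0.88) and 1500009C09Rik (0.88), Serpina3n by Nkx2-2 (0.94), Sh3gl2 (0.93) and Lrp1b (0.93), and C4b by Apoe (0.87), Fggy (0.79) and Abca1 (0.76). Vim was followed by S100a11 (0.83), Plp2 (0.82) and Ahnak (0.78), Nes by Map3k20 (0.81), Kitl (0.80) and Pgm5 (0.80), and Osmr by Dysf (0.98), Foxc1 (0.95) and Hrct1 (0.94). Cd44 was followed by Tmem156 (0.92), Nabp1 (0.92) and Lsp1 (0.89), Lcn2 by Fosl1 (0.98), Ngp (0.97) and Retnlg (0.97), and Steap4 by Snai1 (0.92), Slc6a13 (0.89) and Pla1a (0.85).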

How the data were processed

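The matrix the authors deposited holds whole-number UMI counts per gene and barcode for 23 libraries, with no normalization. Per the submitters' processing notes, Cell Ranger 7.1.0, Seurat 4 and Seurat 5 were used and the builds mm10 and GRCm38 are named. The other files deposited beside the counts (unit: other) name the barcodes, the genes and which library a barcode's number stands for. The annotation release the authors counted on is not given in the sources used here, and gene positions are those of GENCODE vM21.

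The 9 genes and all gene lists were chosen with earlier results of these data known. The genes the text names were the 9, and, of each list, those called in high against negative bins. For 1 gene of these lists no result is reported here. Barcodes under 500 genes or 800 UMIs, or with over 10% mitochondrial UMIs, were dropped. Doublets were removed by Scrublet within each library, above percentile 94 of its score where the automatic threshold marked under 0.5% or over 25% of barcodes. This applied to 8 libraries, 6 of them the medium and high libraries of ATV-CD98hc and the high libraries of ATV-TfR, so the rule differed between high and negative bins. Cells were clustered (scanpy 1.11.5, 2000 variable genes without the 9, 50 components, 15 neighbours, Leiden resolution 1) and named by 19 marker lists, a name needing a share of 0.5 of a list's markers and at least 3.

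UMIs were summed per class and library and tested with edgeR 4.0.16 in R 4.3.3 (quasi-likelihood test, TMM factors, its filter on low counts, Benjamini-Hochberg adjustment over all genes tested). All libraries with at least 20 cells of the class entered 1 fit, with 1 mean per group. The control IgG negative group has 1 library, which is assumed to vary like the other groups. On simulated counts with 200 of 16313 genes changed in the ATV-TfR high bin, the test recovered 56% of changes of 1 and 100% of changes of 2 on the log2 scale, with 4 false calls. The changed genes were drawn from those above 20 CPM, and all genes had the same fixed dispersion. Serpina3n, Osmr, Cd44 and Nes lie below that level in astrocyte-like cells, so recovery at their level was not tested.

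Per the labels, the bins of a treatment share their 2 pools of mice, so pool numbers pair them. Same-pool deviations correlated by -0.38 to 0.80 over 12 pairs of bins. The negative correlations were those of ATV-CD98hc low with its negative (-0.38) and medium (-0.069) bins, so the numbers of that bin may be crossed. DESeq2 1.42.0, other scaling and filters, the pool as a block and smaller sets of cells were tried as alternatives. Intervals and floors (3 counts, 95%) cover counting error only.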

Additional observations from a re-analysis of the deposited data

Results flagged for a closer look

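Gfap's difference between high and negative bins was larger in ATV-TfR than in ATV-CD98hc astrocyte-like cells by 2.30 on the log2 scale, by a test of the difference itself (edgeR adjusted p = 1.0e-05). High measured 285 and 265 CPM in the 2 pools of ATV-TfR against 31.5 and 25.2 in negative, and 56.0 and 62.4 against 27.4 and 25.4 in ATV-CD98hc. Within cluster 6 the difference was 2.45 (adjusted p = 0.012), within cluster 2 it was 0.91 (adjusted p = 0.69), and with 3 unnamed sub-clusters that pass the astrocyte list added it was 1.63 (adjusted p = 0.0037).

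C4b's difference between high and negative bins was likewise larger in ATV-TfR, by 1.31 (edgeR adjusted p = 0.010). In single clusters it was 0.23 (cluster 2), 2.48 (cluster 3) and 0.86 (cluster 6), none of them called, and without either ATV-TfR pool it was 1.15 to 1.49 and not called.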

How the results depend on the processing

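Of the 34 member results called in astrocyte-like cells, all 34 kept their direction and call with RLE size factors, with at least 50 cells per library, with no filter and without control IgG pool 2. DESeq2, a stricter filter and keeping doublets each kept 33, adding the unnamed sub-clusters kept 32, and cells low in endothelial markers kept 29. Female cells alone kept 21 and male cells alone 20. Cluster 2 alone kept 18, cluster 6 alone 13 and cluster 3 alone 4. Without ATV-TfR pool 1 or 2, 17 and 21 were kept, and without ATV-CD98hc pool 1 or 2, 28 and 25. Calls were also gained in astrocyte-like cells. Of member results not called in the main fit, 17 were called with no filter on low counts. DESeq2 and cells low in endothelial markers each called 3, doublets kept 2, and male cells and the added sub-clusters 1 each. Single clusters and left-out pools added calls too. Clusters 3 and 6 alone, the added sub-clusters and crossed pool numbers were chosen after the data were seen. Single clusters and single sexes hold fewer cells and UMIs, which limits what can be called there. Leaving out a pool removes 1 library from every bin of its treatment. Comparisons of bins within that treatment are then 1 library against 1, and those between the ATVs 1 against 2. A lone library is assumed to vary like the other groups.

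In cluster 3 alone 7 called results reversed. C4b was 0.033 in ATV-TfR against ATV-CD98hc medium, -0.75 in ATV-CD98hc high against negative and -0.012 in ATV-CD98hc medium against low. Gfap was -0.071 and Nes -3.42 in ATV-CD98hc high against negative, and Osmr was -5.22 in ATV-TfR high against medium and -4.99 in high against negative. In cluster 2 alone Serpina3n was -7.06 in ATV-CD98hc high against negative. Several of these values rest on 0 counts and are no bound. Both ATV-TfR high libraries of cluster 3 (80 and 33 cells) had 0 Osmr, the 1 ATV-CD98hc high library of cluster 3 (23 cells) had 0 Nes, and that of cluster 2 (25 cells) had 0 Serpina3n. The cause was not tested.

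Class levels were repeated in the negative bin alone, and Gfap and C4b shares of cells at other depths. Of these 48 repeats, 39 moved by at least 1 SD of the main values. The number of the 9 genes called stayed within 1.5 times in 189 of 266 repeats under other settings. The numbers of all genes called stayed within 1.5 times in 162 of 236 repeats under other settings, and in 81 of 145 with a pool left out. The others follow, for astrocyte-like cells unless named, and their cause was not tested. With DESeq2 the numbers were CD98hc against IgG negative 17, high against medium CD98hc 191, high against medium TfR 758, and in border macrophage-like cells high against negative TfR 405, high against negative IgG 37, and in endothelial-like cells high against negative CD98hc 1448. With doublets kept the numbers were CD98hc against IgG negative 19. In female cells the numbers were CD98hc against IgG negative 6, the difference between the ATVs 369, TfR against CD98hc high 535, TfR against CD98hc low 297, TfR against CD98hc medium 1463, TfR against CD98hc negative 39, TfR against IgG negative 19, high against medium CD98hc 12, high against medium TfR 165, high against negative CD98hc 440, high against negative TfR 1529, low against negative CD98hc 202, low against negative TfR 124, medium against low CD98hc 426, medium against low TfR 53. With no filter on low counts the numbers were CD98hc against IgG negative 104, TfR against CD98hc low 1124, TfR against CD98hc negative 456, TfR against IgG negative 412, high against medium CD98hc 269, high against medium TfR 863, low against negative CD98hc 934, low against negative TfR 378, medium against low CD98hc 1621, medium against low TfR 405, and in border macrophage-like cells high against negative IgG 115, and in neuron-like cells high against negative CD98hc 834. In cluster 2 alone the numbers were the difference between the ATVs 9, TfR against CD98hc high 11, TfR against CD98hc medium 1404, TfR against CD98hc negative 42, TfR against IgG negative 42, high against medium CD98hc 2, high against negative CD98hc 14, low against negative TfR 81, medium against low CD98hc 496. In male cells the numbers were the difference between the ATVs 526, TfR against CD98hc high 1015, TfR against CD98hc low 313, TfR against CD98hc medium 2074, TfR against CD98hc negative 31, TfR against IgG negative 6, high against medium CD98hc 23, high against medium TfR 123, high against negative CD98hc 613, high against negative TfR 1116, low against negative CD98hc 137, low against negative TfR 58, medium against low CD98hc 368, medium against low TfR 35. With at least 50 cells per library the numbers were in border macrophage-like cells high against negative TfR 402, and in choroid plexus-like cells high against negative IgG 735, and in microglia-like cells high against negative CD98hc 109. With a stricter filter the numbers were in border macrophage-like cells high against negative IgG 8, and in pericyte-like cells high against negative CD98hc 57, high against negative TfR 103.

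Leaving out 1 pool in turn, the numbers of genes called in astrocyte-like cells were CD98hc against IgG negative 11 to 459, the difference between the ATVs 295 to 1440, TfR against CD98hc high 783 to 1900, TfR against CD98hc low 231 to 775, TfR against CD98hc medium 1014 to 3815, TfR against CD98hc negative 39 to 822, TfR against IgG negative 9 to 302, high against medium CD98hc 17 to 79. For the other astrocyte comparisons they were high against medium TfR 51 to 1029, high against negative CD98hc 608 to 1246, high against negative TfR 326 to 3430, low against negative CD98hc 304 to 869, low against negative TfR 75 to 228, medium against low CD98hc 419 to 1638, medium against low TfR 19 to 311. With a pool left out, the numbers were in border macrophage-like cells high against negative TfR 49 to 733, high against negative IgG 13 to 137, and in choroid plexus-like cells high against negative CD98hc 1844 to 4129, high against negative TfR 867 to 3160, high against negative IgG 665 to 1353, and in endothelial-like cells high against negative CD98hc 422 to 818, high against negative TfR 538 to 1898, and in fibroblast-like cells high against negative CD98hc 263 to 1123. With a pool left out, the numbers were in microglia-like cells high against negative CD98hc 38 to 287, and in neuron-like cells high against negative CD98hc 268 to 542, and in pericyte-like cells high against negative CD98hc 22 to 131, high against negative TfR 116 to 336.

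The pool as a block kept all 27 astrocyte member calls it could be run on and called 4 more. With the pool as a block the numbers were high against medium CD98hc 189, high against medium TfR 888, low against negative CD98hc 950, medium against low CD98hc 1518, medium against low TfR 472, and in border macrophage-like cells high against negative IgG 183, and in endothelial-like cells high against negative CD98hc 1317, high against negative TfR 2919, and in microglia-like cells high against negative CD98hc 572. In other classes it put 8 more under the threshold, among them Vim in control IgG border macrophage-like cells with 1 negative library, and changed no other call of a member. Comparisons between treatments within a bin have no block fit, because each pool received 1 treatment. With the pool as a block and the low numbers of ATV-CD98hc crossed, an alternative added after the data were seen, the numbers were low against negative CD98hc 920, medium against low CD98hc 1755.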

Other observations

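A few small sub-clusters outside the astrocyte-like class held the highest Gfap of all cells. They stayed unnamed under the naming rule and are left out of the astrocyte-like class. The ones led by Myoc and by Thbs4 are among the 3 added to it as an alternative. A sub-cluster of 38 cells led by Myoc and Gfap, genes of astrocytes at the brain surface, measured 3813 CPM of Gfap, 746 of Vim, 307 of C4b, 121 of Cd44 and 98.8 of Serpina3n. A sub-cluster of 210 cells led by Thbs4 and Crym measured 526 CPM of Gfap and 176 of C4b. A sub-cluster of 105 cells led by Hpse2 measured 474 CPM of Gfap and 871 of Vim. Their cells come from all libraries together, with no spread over pools.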
